A study of Mus musculus with 6 samples.

Results

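Opposite-strand transcripts are genes named for the gene they face: the symbol is that of the gene on the other DNA strand followed by os, with a digit where one gene has several. All rows of the expression table whose symbol ends in this way and whose stem is itself a row were taken, which gave 256 opposite-strand transcripts among 24841 rows. They face 221 sense partners, the genes their names point to, and 25 partners have more than 1 such transcript, up to 4 for a single partner. A further 27 rows with the ending had no partner row and were left aside. They include genes of other kinds that only happen to end this way, such as Nos1. The rule uses names alone and no measured value, but it was chosen with earlier results of these data known.

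Most such transcripts are long non-coding RNAs that are spliced and stay largely in the nucleus. Where transcript and partner start close together on opposite strands they often share a promoter, so that their levels can be linked through the same open chromatin, and where the transcript lies inside the partner gene both are copied from the same stretch of DNA in opposite directions. A few of them, such as Dlx6os1 in the Dlx5/Dlx6 locus of forebrain inhibitory neurons, are known as regulators of the genes beside them, but for most no role is known.

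The study sequenced RNA of single nuclei from dissected mouse striatum, the input nucleus of the basal ganglia, in 3 wild-type and 3 Celsr3 heterozygous libraries, each labelled a biological replicate. Celsr3 encodes a seven-pass cadherin that guides axons. The labels give neither age, sex, strain nor the kind of Celsr3 allele, and no separate control carries another allele. The 10x Genomics kit named there reads the 3′ ends of RNA, and all 6 libraries ran on the same sequencing lane.

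The table holds 48834 nuclei with a depth-corrected value per gene, read here as corrected numbers of unique molecules. Of these, 48057 nuclei were kept, 7631 to 8725 per library, with a median of 2428 to 2997 genes detected; the lowest median belongs to wild-type library 1. Clusters made without the opposite-strand transcripts and their partners gave 18 named classes with 40184 nuclei, among them 8446 D1 and 7116 D2 medium spiny neuron-like (MSN-like) nuclei, the dopamine-receptor-defined projection neurons of the striatum. A further 6 clusters stayed unnamed and enter only the all-nuclei values; the largest, with 2690 nuclei before doublets were left out, was high in 8 of 8 oligodendrocyte markers but had a marker of committed precursors, Enpp6, and none of oligodendrocytes among its 10 leading genes, and is not part of the 5700 oligodendrocyte-like nuclei. In the table, 274 barcodes occurred in more than 1 library. In D1 MSN-like nuclei Celsr3 itself had wild-type values of 0.149, 0.169 and 0.177 per nucleus and heterozygous values of 0.0783, 0.103 and 0.0977, which come to 56.3% of the wild-type mean. The groups did not overlap, and their order follows the labels. In all nuclei Celsr3 stood at 69.4% of the wild-type mean.

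The GENCODE annotation of the mouse genome (release M21, build GRCm38) holds 250 of the 256 transcripts under the same symbol. Of these, 212 overlap the span of their partner on the other strand, 31 lie head to head without overlap, with starts a median of 165 bases apart (39 to 15669), and 7 lie tail to tail. In 113 every exon base lies within the partner's gene span, in 99 the exons lie only in part or not at all within it although the spans overlap, and 38 do not overlap. Of the 113 that lie wholly inside, 58 have no base in a partner exon and so sit in introns only. The annotation classes 221 as antisense RNA, 10 as processed transcripts, 6 as intergenic and 3 as transcripts of bidirectional promoters, and 10 as protein-coding, for example Wdr83os and Cebpzos. The 6 symbols not found there were Oip5os1, Lef1os1, Prdm16os, Fzd10os, Rbfaos and Cdr1os.

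Promoter windows of 300 bases, from 250 before to 50 after the start in RefSeq (GRCm38.p6), could be matched for 155 transcripts and 177 partners. The CpG ratio, the number of CG dinucleotides over the number the base composition gives by chance, was over 0.6 in 32.3% of the transcripts' windows, in 63.3% of the partners' windows and in 36.4% of all 27025 windows of the table. The place of the transcript separated these windows further: 4 of 59 windows of transcripts wholly inside their partner were over 0.6, against 28 of 66 of those partly inside and 16 of 27 of those without overlap. In 22 of 128 pairs with both windows these overlapped on opposite strands, and 19 of those transcript windows were over 0.6. The windows follow RefSeq starts, which can differ from the GENCODE starts behind the spans given here, as for Pcsk2os2, Ino80dos and Junos. A window says nothing of whether a factor binds there.

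The windows of 3 transcripts that lie wholly inside their partners and stood lower in heterozygous D1 or D2 MSN-like nuclei are shown 5′ to 3′ on the transcript's own strand, with each CG in capitals. They hold 2, 4 and 2 CG dinucleotides.
Far2os1, chr6:148067826-148068125, minus strand: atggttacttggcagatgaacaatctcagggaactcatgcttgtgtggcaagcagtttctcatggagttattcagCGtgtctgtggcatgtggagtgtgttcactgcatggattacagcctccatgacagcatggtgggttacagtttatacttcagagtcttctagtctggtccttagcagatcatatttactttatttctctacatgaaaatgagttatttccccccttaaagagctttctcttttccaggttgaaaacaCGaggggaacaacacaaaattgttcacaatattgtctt
Nell1os, chr7:50575835-50576134, minus strand: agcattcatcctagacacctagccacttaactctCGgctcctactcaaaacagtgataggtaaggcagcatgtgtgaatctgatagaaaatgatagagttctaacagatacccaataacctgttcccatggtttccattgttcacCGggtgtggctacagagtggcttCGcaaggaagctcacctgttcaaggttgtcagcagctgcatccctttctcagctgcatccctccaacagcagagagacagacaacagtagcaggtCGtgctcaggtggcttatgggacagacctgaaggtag
Pcsk2os2, chr2:143789137-143789436, minus strand: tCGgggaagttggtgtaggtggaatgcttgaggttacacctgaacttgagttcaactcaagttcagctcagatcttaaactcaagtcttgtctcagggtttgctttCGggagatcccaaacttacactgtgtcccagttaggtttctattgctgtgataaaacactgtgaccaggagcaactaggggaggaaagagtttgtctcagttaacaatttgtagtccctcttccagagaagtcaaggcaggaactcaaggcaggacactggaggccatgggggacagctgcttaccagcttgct

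For comparison, the next windows belong to Ino80dos, which is partly inside Ino80d, and to Junos, whose window overlaps that of Jun on the other strand. They hold 25 and 17 CG dinucleotides. The window of Rsf1os2, partly inside Rsf1 and not shown, is also CpG-rich, with 21 CG dinucleotides and a CpG ratio of 0.953, and this transcript was lower at an unadjusted p under 0.05 in 8 of 10 classes.
Ino80dos, chr1:63114221-63114520, plus strand: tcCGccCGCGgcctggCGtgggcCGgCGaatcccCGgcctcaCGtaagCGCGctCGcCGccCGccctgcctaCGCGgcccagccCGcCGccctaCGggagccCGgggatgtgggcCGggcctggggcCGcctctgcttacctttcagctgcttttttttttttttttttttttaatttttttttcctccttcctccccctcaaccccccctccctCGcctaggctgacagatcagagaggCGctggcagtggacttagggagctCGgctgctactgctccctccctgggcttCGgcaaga
Junos, chr4:95052067-95052366, plus strand: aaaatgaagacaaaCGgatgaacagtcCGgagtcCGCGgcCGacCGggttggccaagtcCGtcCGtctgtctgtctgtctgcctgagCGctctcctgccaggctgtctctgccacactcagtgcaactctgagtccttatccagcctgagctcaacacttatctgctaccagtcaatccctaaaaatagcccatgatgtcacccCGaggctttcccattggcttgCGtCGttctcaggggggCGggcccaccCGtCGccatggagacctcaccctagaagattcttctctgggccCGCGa

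Bcas1os2 is the 1 transcript wholly inside its partner that could be tested and has a CpG ratio over 0.6. Its window, shown for that reason, has 16 CG dinucleotides and a CpG ratio of 0.756.
Bcas1os2, chr2:170356111-170356410, plus strand: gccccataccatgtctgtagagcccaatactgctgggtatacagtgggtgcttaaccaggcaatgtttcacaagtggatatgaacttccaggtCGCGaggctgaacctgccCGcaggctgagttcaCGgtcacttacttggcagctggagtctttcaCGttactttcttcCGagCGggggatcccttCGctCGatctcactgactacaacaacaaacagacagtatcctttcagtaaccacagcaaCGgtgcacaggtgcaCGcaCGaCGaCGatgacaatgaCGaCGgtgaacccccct

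Most opposite-strand transcripts were scarce. Over all nuclei 4 of the 256 reached a mean of 1 per nucleus, 48 reached 0.1, 142 were under 0.02 and 31 under 0.001. Cdr1os was the most abundant, with 3.01 ± 0.208 per nucleus (mean ± SD over 6 libraries), against 0.0267 ± 0.00478 for Cdr1. Nrg3os, opposite the neuregulin gene Nrg3, had 1.59 ± 0.375, and Sorbs2os, opposite the cytoskeletal adaptor gene Sorbs2, had 1.57 ± 0.373. Far1os, opposite a fatty acyl-CoA reductase gene, had 1.02 ± 0.197. The next 8 by level were Macrod2os1, Rsf1os1, Dlx6os1, Dtnbos, Brip1os, Oip5os1, Ino80dos and Rapgef4os1, between 0.780 ± 0.163 for Macrod2os1 and 0.414 ± 0.0643 for Rapgef4os1. Nrg3os and Sorbs2os lay within 1 SD of each other, as did each pair of neighbours from Macrod2os1 down to Rapgef4os1. The value of an opposite-strand row can hold reads of the partner where the spans overlap, if strand was not used in counting, which the sources used here do not state.

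Against the partner, 13 of the 70 pairs whose transcript reached 0.05 had more signal in the transcript than in the sense gene, and the median ratio was 0.273. The highest ratios were 113 for Cdr1os, 65.6 for Oip5os1 (also known as Cyrano), 57.2 for Brip1os, 7.58 for Dlx6os1, 7.30 for Otx2os1 and 4.50 for Nkx2-2os. Per kilobase of gene span the picture shifted, because partners are mostly the longer genes. The value per kilobase was higher for the transcript in 42 of 68 pairs with both lengths, with a median per-kilobase ratio of 1.33. As the kit reads 3′ ends, values need not scale with gene span. Dividing by span lowers long partners by construction, so the per-kilobase ratios do not rank levels. Dtnbos, 9.60 kb long inside the 209-kb dystrobrevin gene Dtnb, had a ratio of 0.299 as counted and of 6.51 per kilobase. Dlx6os1, 51.4 kb long beside the 5.24-kb Dlx6 gene, went the other way, with a per-kilobase ratio of 0.772. Pcsk2os2, inside the prohormone convertase gene Pcsk2, was below its partner on both scales, at 0.105 as counted and 0.585 per kilobase.

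Many transcripts were spread over the cell classes as their partners were, most of all those wholly inside. In all, 150 transcripts reached 0.05 per nucleus in some class. In 68 of these the class of the highest mean was also the partner's, and in 98 it was among the partner's 3 highest. Small classes often held the highest mean: cholinergic interneuron-like nuclei (219 nuclei) for 34 transcripts and ependymal-like nuclei (155 nuclei) for 22. Over the 18 classes the median Spearman correlation between a transcript's and its partner's mean was 0.67, described without a test because all classes share the same libraries and depth correction. By place it was 0.80 for the 71 transcripts wholly inside, 0.49 for the 57 partly inside and 0.47 for the 18 without overlap. Unrelated gene pairs were not computed as a reference. Classes also differ in genes detected, with medians of 1896 in microglia-like and 3391 in D1 MSN-like nuclei. Sorbs2os followed Sorbs2 at 0.94 and Nell1os followed Nell1 at 0.88. Ino80dos, at -0.0010, and Rab10os, at -0.64, did not follow their partners. Oip5os1 stood at 0.0031, but Oip5 had only 0.00842 per nucleus over all nuclei, so the order of its class means is uncertain. Rab10os had the lowest value and was named after its value was seen.

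Several transcripts were marked for a single class. Otx2os1, opposite the homeobox gene Otx2, had 20.5 ± 1.81 per nucleus in choroid plexus-like nuclei (SD over the 3 libraries with at least 20 such nuclei) and 0.132 ± 0.0949 in the next class, ependymal-like nuclei; Otx2 had 2.19 ± 0.349 in the former. Bcas1os2, inside the gene of the early myelin protein Bcas1, ranged from 9.53 to 16.8 over the libraries in committed oligodendrocyte precursor-like nuclei and had 1.50 ± 0.405 in oligodendrocyte-like nuclei. Bcas1 is also among the markers that named the former class, so that this peak is a description. Dlx6os1 had 9.07 ± 1.83 in neuroblast-like nuclei, 2.13 ± 0.835 in cholinergic interneuron-like nuclei and 0.0305 in glutamatergic neuron-like nuclei, its lowest class. Tbx3os1, opposite the T-box gene Tbx3, had 2.26 ± 0.363 in mural-like nuclei against 0.197 ± 0.0973 in endothelial-like nuclei, while Tbx3 had 0.321 ± 0.108 in mural-like nuclei.

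Adap2os was nearly as high in mural-like nuclei (1.99 ± 0.415) as in microglia-like nuclei (2.15 ± 0.316), a difference within the spread of libraries. Emx2os had 0.479 ± 0.0941 in astrocyte-like nuclei and 0.121 ± 0.0298 in oligodendrocyte precursor-like (OPC-like) nuclei. Grip1os3 reached 0.326 ± 0.0508 in GABAergic interneuron-like nuclei against 0.0786 ± 0.0468 in cholinergic ones, and Grip1, a glutamate receptor scaffold gene, peaked in the same class. In the striatal projection neurons, Nell1os had 0.802 ± 0.207 in D2 and only 0.0696 in D1 MSN-like nuclei, whereas St8sia3os, opposite a sialyltransferase gene, did not separate them, with 0.750 ± 0.104 in D1 and 0.704 ± 0.109 in D2. Foxd2os marked fibroblast-like nuclei at 0.280 ± 0.0768 (5 libraries), where Foxd2 had 0.00777 ± 0.0174. Dlx4os had 0.0509 ± 0.0219 in ependymal-like nuclei of 3 libraries, and Dlx4 was at 0 in them. Ptgs2os, whose promoter window overlaps that of the prostaglandin synthase gene Ptgs2, had 0.105 ± 0.00970 in glutamatergic neuron-like nuclei and 0.0702 ± 0.00707 in eccentric MSN-like nuclei.

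The other classes had weaker leaders. Galnt6os had 0.0933 ± 0.0750 in oligodendrocyte-like nuclei, with single libraries between 0.0229 and 0.176. Gldnos had 0.0785 ± 0.0551 in cholinergic interneuron-like nuclei, Mecomos 0.144 ± 0.0558 in endothelial-like nuclei, Has2os 0.290 ± 0.0430 in OPC-like nuclei and Igf1os 0.0845 ± 0.00168 in border-associated macrophage-like nuclei of 2 libraries. Has2os was higher still in committed precursor-like nuclei, at 0.636 ± 0.263, and Mecomos in choroid plexus-like nuclei, at 0.161 ± 0.0951.

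**Figure D1:**
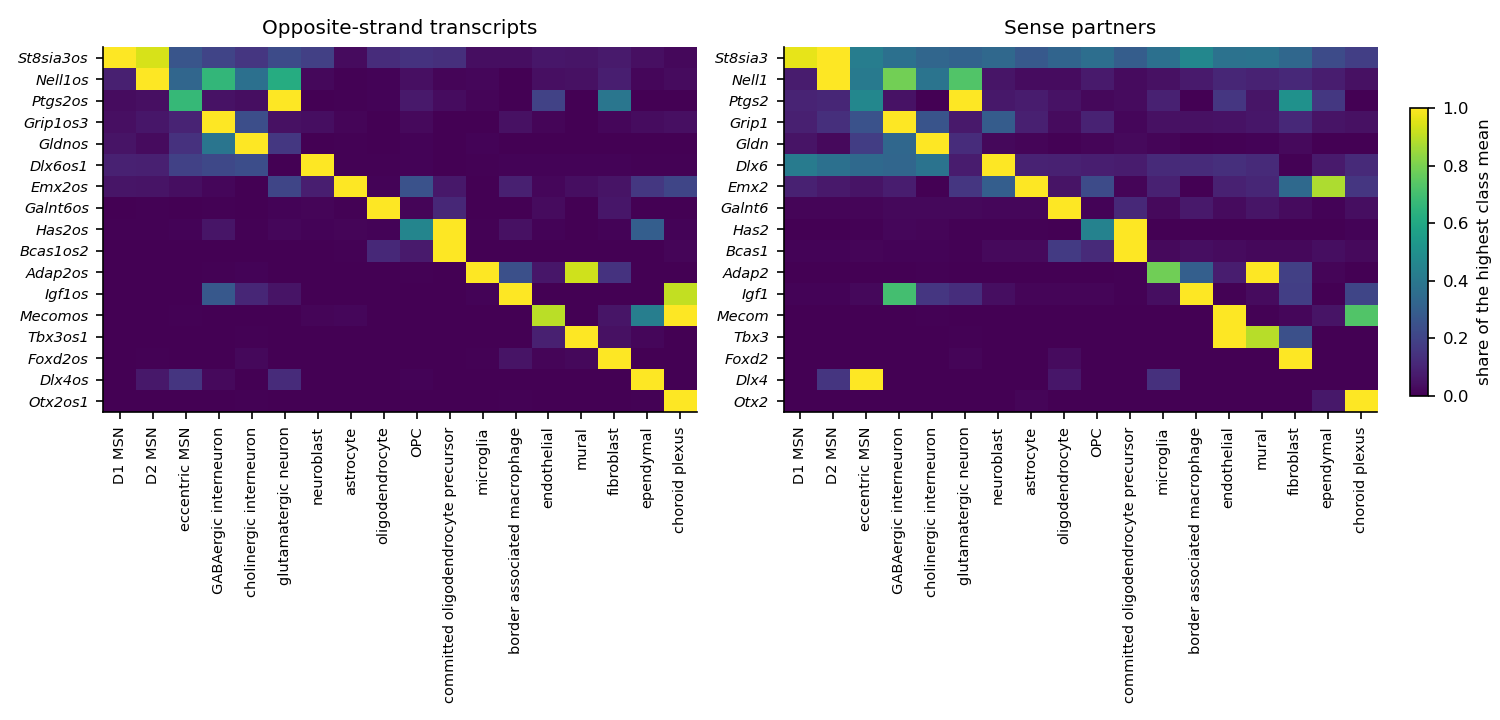
Mean value per nucleus of the transcript most marked for each class (left, rows) and of its sense partner (right) in 18 classes (columns), each row as a share of its highest class. Otx2os1, Bcas1os2, Dlx6os1 and Tbx3os1 are bright in a single class, and most partners peak in the same class or beside it.

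Transcript and partner were also compared within single nuclei of the D1 MSN-like class, where 93 of 108 pairs with the transcript in at least 2% of nuclei could be compared in all 6 libraries, at like numbers of genes detected. In 34 pairs the transcript was found more often in nuclei with the partner than in nuclei without it in 6 of 6 libraries, and in 1 pair less often in 6 of 6. The 34 were made up of 25 of 44 pairs wholly inside, 8 of 36 partly inside and 1 of 12 without overlap. Unrelated gene pairs were not compared, and the clusters pooled in this class were not balanced. The counts therefore cannot show a link particular to transcript and partner. Nell1os and Nell1 were both highest in D2 MSN-like nuclei, and whether nuclei of that class enter here was not tested. Nell1os was present in 24.7% ± 5.78 (SD over 6 libraries) of the nuclei with Nell1 and in 2.32% ± 0.620 of those without, Grip1os2 in 25.1% ± 3.35 and 8.04% ± 1.50, and Rapgef4os1 in 49.0% ± 7.03 and 34.0% ± 5.76. In microglia-like nuclei the 3 were present in 0.720%, 0.508% and 0.720%, at a median of 1896 genes against 3391 in D1 MSN-like nuclei. At the other end stood Man2c1os, present in 26.8% ± 3.41 of nuclei with Man2c1 and 29.6% ± 1.82 without, Junos, in 3.89% ± 1.25 and 5.81% ± 1.10, and Sp3os, in 16.2% ± 2.99 and 17.6% ± 0.821. Each of these was lower with the partner in 3 to 5 of 6 libraries. Outside neurons, Man2c1os was present in 11.1% of microglia-like and 12.6% of oligodendrocyte-like nuclei, Sp3os in 9.79% and 8.28%, and Junos in 2.71% and 1.53%. Over all D1 MSN-like nuclei the shares were 28.3% for Man2c1os, 16.7% for Sp3os and 5.70% for Junos.

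Against this background of shared class patterns, the comparison of genotypes asks whether these RNAs stand at other levels in Celsr3 heterozygous striatum. At an unadjusted p under 0.05, a larger share of opposite-strand transcripts than of all genes was lower in the heterozygous libraries, while few of their sense partners were. Transcripts wholly inside their partner made up most of the lower ones, in the same direction in neurons and glia. With adjustment over all genes no single transcript passed the threshold. The share was not particular to the members. Annotated antisense genes that are not members were lower in 32.2% in D1 and 33.4% in D2 MSN-like nuclei, beside 35.8% and 31.9% of the members.

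In D1 MSN-like nuclei 106 of the 256 transcripts passed the filter on low values and were tested with limma. By adjusted p under 0.05 none was called, as against 0.0149% of all genes tested, and the smallest adjusted p was 0.0707. At an unadjusted p under 0.05, 38 were lower and 1 higher in the heterozygous libraries, where 4.26% of all 13417 genes were lower and 5.61% higher. In 37 transcripts the highest heterozygous value was under the lowest wild-type value, and in 4 the lowest heterozygous value was over the highest wild-type value, against 5.17% and 11.2% of all genes. The median log2 difference (heterozygous minus wild type, on means per nucleus plus 0.01) was -0.19 over the 106 transcripts and 0.06 over all genes tested. Among 153 partners tested, 4 were lower and 5 higher.

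D2 MSN-like nuclei gave like counts. Of 94 transcripts tested 0 were called by limma with adjustment, where 0.0157% of all genes were, and 30 were lower and 1 higher at an unadjusted p under 0.05 (all genes 4.56% and 4.10%). The heterozygous libraries lay wholly below in 31 and wholly above in 1 (all genes 5.51% and 8.94%). The median was -0.20 against 0.04 over all genes, and the smallest adjusted p was 0.0813. Of 147 partners, 5 were lower and 10 higher. Both D1 and D2 MSN-like nuclei pool clusters that the libraries fill unequally, and the part of this in the counts was not tested. Wild-type library 1 and heterozygous library 2 gave 9.7% and 27.1% of a D1 cluster, and 12.8% and 22.4% of a D2 cluster.

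In all nuclei together 114 transcripts were tested and 0 called with adjustment (all genes 0.00%); 37 were lower and 2 higher at an unadjusted p under 0.05 (all genes 3.65% and 6.17%), and 40 lay wholly below and 3 wholly above (all genes 4.47% and 14.8%). The median was -0.17 against 0.07. Of 176 partners 3 were lower and 11 higher. In a mean over all nuclei, fewer nuclei of a class and less RNA per nucleus cannot be told apart, so values within classes are given beside it.

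The median over the transcripts tested moved nearer to 0 with a pseudocount of 0.1, to -0.06 in all nuclei, -0.09 in D1 and -0.09 in D2 MSN-like nuclei, and without the filter on low values, to -0.02, -0.04 and -0.05. The count of adjusted calls depended on single settings. With library weights estimated by limma 16 transcripts were called in D1 and 14 in D2 MSN-like nuclei, and without wild-type library 1 there were 7 in each. With those weights the median was nearer to 0 in D1, at -0.12, and stood at -0.17 in all nuclei and -0.16 in D2. Matching nuclei on genes detected moved it away from 0, to -0.23 in all nuclei, -0.30 in D1 and -0.29 in D2. Without heterozygous library 2 the number at an unadjusted p under 0.05 was 24 in D1 MSN-like nuclei and 25 in all nuclei, in place of 39 each.

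The place of the transcript, a split chosen after the values were seen, separated the lower transcripts from the others. In D1 MSN-like nuclei 31 of 51 transcripts wholly inside their partner were lower at an unadjusted p under 0.05, with a median log2 difference of -0.36, and 46 of the 51 had a negative difference. Among those partly inside 6 of 40 were lower (median -0.06), and among those without overlap 1 of 13 (median 0.01). In D2 MSN-like nuclei the same split gave 25 of 48 (median -0.36), 4 of 34 (-0.11) and 1 of 10 (-0.04). In all nuclei it gave 31 of 56, 5 of 44 and 1 of 11. The difference between these groups was not tested, since the transcripts share libraries and, in part, partners. The count wholly inside was lower by over 1.5 times when certain single libraries were left out: 19 of 52 in D1 without heterozygous library 2, and in all nuclei 19 of 59 without heterozygous library 2, 19 of 58 without heterozygous library 3 and 20 of 53 without wild-type library 3. In D1 MSN-like nuclei the median of those wholly inside lay between -0.20 and -0.41 under every alternative setting, and that of those without overlap between -0.06 and 0.09. For D2 MSN-like nuclei these ranges were -0.15 to -0.42 and -0.10 to 0.03, with -0.15 where the filter on low values was dropped.

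**Figure D2:**
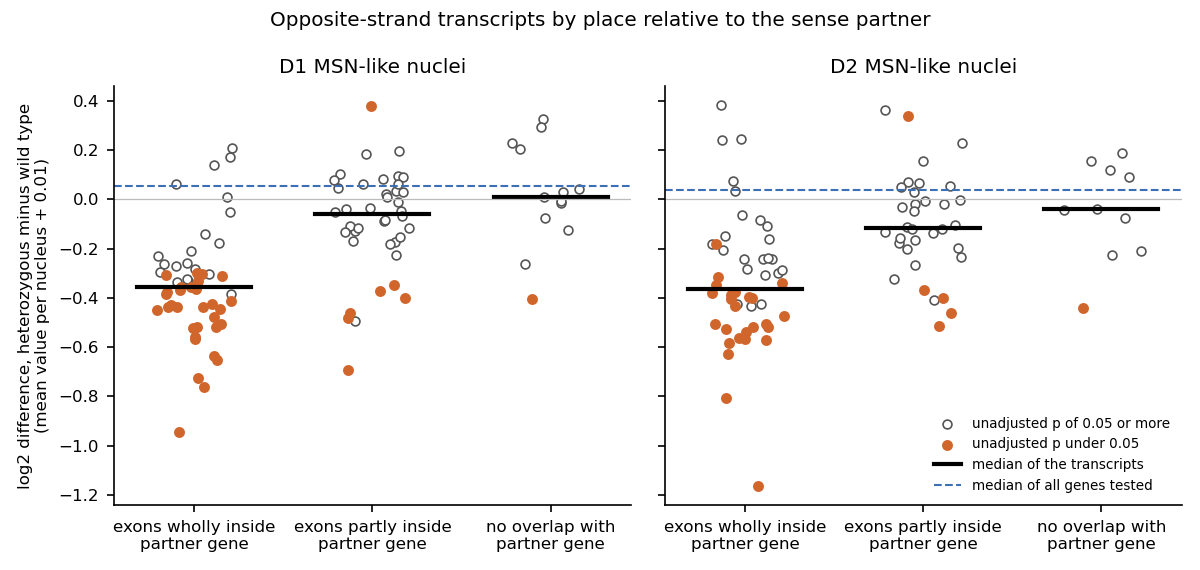
Log2 difference in mean value per nucleus, heterozygous minus wild type, of the opposite-strand transcripts tested in D1 (left) and D2 (right) MSN-like nuclei, by place of their exons relative to the partner gene. Filled points have an unadjusted p under 0.05, black bars are medians, and the dashed line is the median of all genes tested; 31 of 51 (D1) and 25 of 48 (D2) points of transcripts wholly inside are filled on the lower side.

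Promoter composition ran alongside: 21 of 46 tested transcripts with a CpG ratio of 0.6 or less were lower in D1 MSN-like nuclei, against 2 of 23 with a ratio over 0.6 and 15 of 37 without a window. Within the low-CpG transcripts, 19 of 30 wholly inside and 2 of 14 partly inside were lower. The 6 protein-coding members tested in D1 MSN-like nuclei had differences from -0.15 to 0.23 and none at an unadjusted p under 0.05. Among those wholly inside, ordered by the ratio of transcript to partner and cut into 3 groups of 17, 8 were lower in the group of lowest ratio, 11 in the middle group and 12 in the group of highest ratio.

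Arhgap20os had the smallest p of the transcripts in D1 MSN-like nuclei. It lies at chr9:51832814-51875886 on the minus strand, with 89.5% of its exon bases within Arhgap20 on the plus strand. Its values per nucleus were 0.419, 0.378 and 0.392 in wild type against 0.228, 0.242 and 0.254 in heterozygotes. The groups did not overlap, and heterozygous libraries averaged 60.9% of wild type (log2 difference -0.69 ± 0.09 (SE), adjusted p = 0.0707 by limma). Arhgap20 itself overlapped between the groups, with 1.33 ± 0.0925 and 1.18 ± 0.169 (SD, n = 3 each).

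Csmd2os lies in introns of Csmd2, a gene for a transmembrane protein with CUB and sushi domains, at chr4:128133523-128166967 on the minus strand. Its D1 values were 0.247, 0.265 and 0.251 in wild-type and 0.148, 0.134 and 0.169 in heterozygous libraries. All heterozygous libraries were lower (log2 difference -0.72 ± 0.11, adjusted p = 0.0974 by limma). In D2 MSN-like nuclei it had 0.245 ± 0.00434 against 0.136 ± 0.0183 (SD over 3 libraries), again without overlap, at 55.7% of the wild-type mean, with the smallest adjusted p of that class, 0.0813. Csmd2 overlapped in both classes, at 95.5% and 98.4% of the wild-type mean.

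Sorbs2os lies wholly within Sorbs2 at chr8:45723325-45819297 on the minus strand, and 42.5% of its exon bases fall in Sorbs2 exons. It had 3.24, 3.06 and 3.37 in wild-type and 2.48, 2.05 and 2.02 in heterozygous libraries of D1 MSN-like nuclei. These groups did not overlap (67.7% of wild type, log2 difference -0.57 ± 0.09, adjusted p = 0.0974 by limma), and Sorbs2 did, at 95.4%. In D2 MSN-like nuclei the transcript stood at 66.8% and Sorbs2 at 93.2%.

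Pcsk2os2 lies at chr2:143747583-143795965 on the minus strand, inside Pcsk2. Its window shown above, with 2 CG dinucleotides, flanks the RefSeq start, which lies some kilobases inside this GENCODE span. Its D1 values were 1.08, 0.993 and 1.01 against 0.729, 0.737 and 0.802. The heterozygous libraries were all lower, at 73.7% of wild type (log2 difference -0.44 ± 0.07, adjusted p = 0.128 by limma). Pcsk2, which cleaves neuropeptide precursors, had 6.17 ± 0.131 and 6.49 ± 0.195, all heterozygous libraries being slightly above, with a log2 difference of 0.07 ± 0.06.

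Further down the order in D1 MSN-like nuclei came Macrod2os2 at 68.4% of wild type, Far2os1 at 62.3%, St8sia3os at 78.4%, Brip1os at 75.3%, Dtnbos at 81.2% and Nr6a1os at 73.8%, each without overlap of the groups and with adjusted p from 0.193 to 0.253 by limma. The partners Macrod2, St8sia3 and Nr6a1 overlapped between the groups, Dtnb lay above at 111.7%, and Brip1 was too low to test. Far2 was the only tested partner of a lower transcript that was itself lower at an unadjusted p under 0.05, at 84.1% of wild type in D1 and 78.3% in D2 MSN-like nuclei. Of the 33 tested partners of the 38 lower transcripts in D1, Pitpnm2 and Ube4b were higher at that level, and the partners' median log2 difference was 0.06, equal to that of all genes to 2 decimals.

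Nell1os, whose window with 4 CG dinucleotides is shown above, had 1.01, 1.07 and 0.849 in wild-type and 0.659, 0.596 and 0.624 in heterozygous D2 MSN-like nuclei. The groups were apart at 64.1% of the wild-type mean (log2 difference -0.63 ± 0.10, adjusted p = 0.103 by limma). Nell1, which encodes a secreted EGF-like protein, overlapped at 88.5%. In D1 MSN-like nuclei, where the transcript is scarce, the log2 difference was -0.41 ± 0.16.

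**Figure D3:**
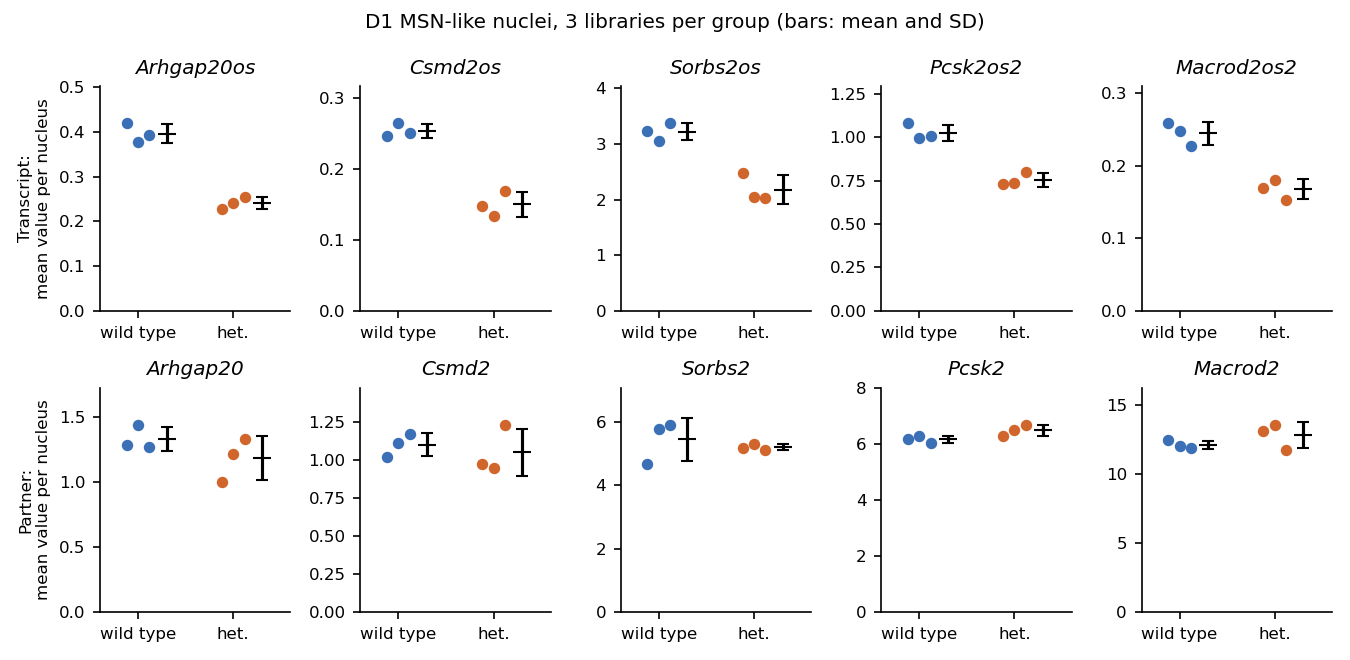
Mean value per nucleus of 5 transcripts (top) and their sense partners (bottom) in D1 MSN-like nuclei, 1 point per library, with the mean and SD of the 3 libraries of each group beside the points. For Arhgap20os, Csmd2os, Sorbs2os, Pcsk2os2 and Macrod2os2 all heterozygous points lie below all wild-type points; for Arhgap20, Csmd2, Sorbs2 and Macrod2 they overlap.

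Brip1os was also lower, although it does not overlap Brip1, a DNA helicase gene whose start lies 177 bases away. Of its exon bases 39.8% lie within Ints2 and Med13, genes of the Integrator and Mediator complexes on the opposite strand. In all nuclei it had 0.661, 0.660 and 0.630 against 0.525, 0.515 and 0.503, the smallest p of the transcripts there (log2 difference -0.33 ± 0.06, unadjusted p = 0.000954, adjusted p = 0.436 by limma). It was negative in all 13 classes in which it was tested, all from the same libraries, and lower at an unadjusted p under 0.05 in 9. Ino80dos, with 52.2% of its exon bases opposite Ndufs1, overlapped in all nuclei, at 0.467 ± 0.00941 in wild type and 0.460 ± 0.0344 in heterozygotes (SD over 3 libraries each). By class it was negative in 10 of 11 classes tested but lower at an unadjusted p under 0.05 in 1, microglia-like nuclei, with a log2 difference of -0.46 ± 0.20. Its log2 ratio to Ino80d in D1 MSN-like nuclei was 0.06, -0.05 and -0.11 in wild type and -0.13, -0.31 and -0.30 in heterozygotes, without overlap. In D2 MSN-like nuclei and in all nuclei this ratio overlapped, with differences of -0.04 and -0.10.

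The log2 ratio of transcript to partner gives the comparison within each library. Its median difference was -0.31 over 100 pairs in D1, -0.30 over 88 pairs in D2 MSN-like nuclei and -0.28 over 108 pairs in all nuclei, with 85, 73 and 84 pairs lower. The size of these medians depended on the setting, and all were nearer to 0 with a pseudocount of 0.1, as given in the closing section. A two-sided exact permutation test over 3 against 3 libraries cannot go below p = 0.1. That limit was reached by 52 pairs in D1, 49 of them lower, by 43 in D2, all lower, and by 59 in all nuclei, 57 of them lower. Reaching it means only that the groups did not overlap, and the ratio has no share over all genes to set beside these counts. For Pcsk2os2 over Pcsk2 in D1 MSN-like nuclei the log2 ratio was -2.51, -2.65 and -2.57 in wild-type and -3.09, -3.12 and -3.04 in heterozygous libraries. For Sorbs2os over Sorbs2 it was -0.53, -0.91 and -0.81 against -1.06, -1.37 and -1.34. For Macrod2os1 over Macrod2 it was -2.65, -2.99 and -2.95 against -3.24, -3.38 and -3.51. In each of these 3 pairs the groups did not overlap.

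**Figure D4:**
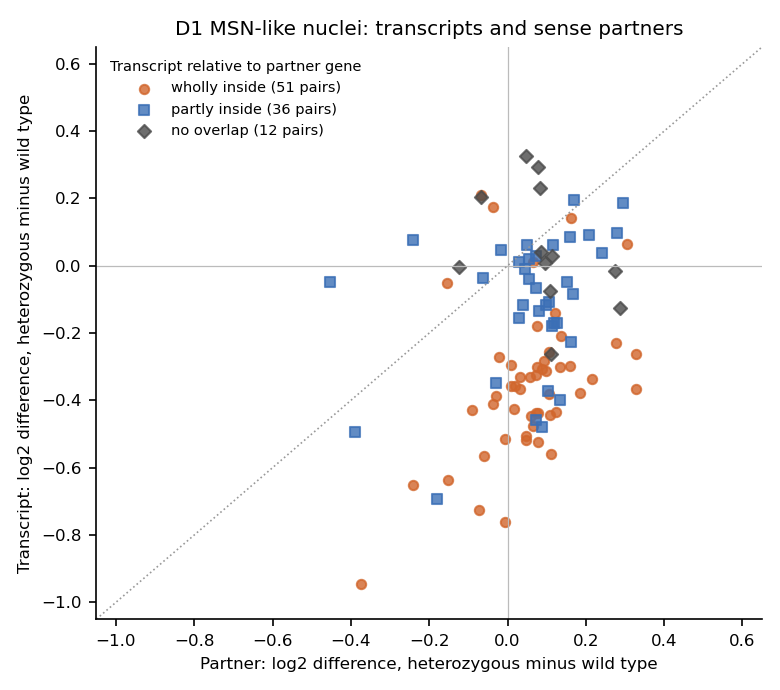
Log2 difference of each opposite-strand transcript (vertical) against that of its sense partner (horizontal) in D1 MSN-like nuclei, 1 point per pair with both tested, by place of the transcript. Points of the 51 pairs wholly inside lie mostly below the dotted line of equal difference, with the partners on both sides of 0.

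The same direction appeared in other classes. At an unadjusted p under 0.05, 26 of 60 tested transcripts were lower and 0 higher in GABAergic interneuron-like nuclei (all genes 4.57% lower and 1.55% higher). In glutamatergic neuron-like nuclei 25 of 86 were lower and 1 higher (3.45% and 1.83%). Both classes pool clusters that the libraries fill unequally, and the part of this in the counts was not tested: heterozygous libraries 1 and 2 gave 1538 and 230 of the glutamatergic nuclei, and 40.0% and 4.82% of the largest GABAergic cluster. In eccentric MSN-like nuclei 11 of 34 were lower and 0 higher (3.35% and 2.07%). In cholinergic interneuron-like nuclei 3 of 8 were lower (2.30%, with 2.51% higher) and in neuroblast-like nuclei 3 of 18 (2.81%, with 2.14% higher). Among glia, 19 of 57 were lower in astrocyte-like nuclei (3.34%, with 2.93% higher), and 12 of 44 lower and 2 higher in oligodendrocyte-like nuclei (2.84% and 2.48%). These glial classes also pool unequally filled clusters, and the part of this was not tested. Heterozygous libraries 1 and 2 gave 2.41% and 27.2% of an astrocyte-like cluster. Wild-type libraries 1 and 2 gave 31.35% and 9.92% of an oligodendrocyte-like cluster. In microglia-like nuclei 9 of 25 were lower (3.20%, with 2.26% higher), in committed precursor-like nuclei 4 of 11 (3.06%, with 3.20% higher) and in OPC-like nuclei 2 of 18 (1.84%, with 2.48% higher). In vessels, 4 of 12 were lower in endothelial-like nuclei (1.84%, with 1.33% higher) and 1 of 8 in mural-like nuclei (1.76%, with 2.99% higher). No transcript was higher at that level in the classes for which no such count is given. None of these was called by limma with adjustment, where 0.00799% of all genes were called in glutamatergic neuron-like nuclei and 0.00% in the other classes, and the smallest adjusted p among transcripts was 0.354, in astrocyte-like nuclei. Across the 14 classes tested, 138 transcripts were tested at least once and 118 nowhere. Of 51 tested in 5 or more classes, 23 were negative in every class. No share over all genes was counted beside this, and the classes share the same libraries, so they are not independent. Far1os was negative in all 12 of its classes and lower at an unadjusted p under 0.05 in 10, Rsf1os2 was negative in all 10, and Csmd2os in all 8.

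In glia, 3 transcripts wholly inside their partners, named for their small p in all nuclei, were lower while their partners overlapped. Egfros, inside the growth factor receptor gene Egfr at chr11:16815431-16830702 on the minus strand, had 0.503, 0.568 and 0.508 in wild-type and 0.356, 0.325 and 0.281 in heterozygous astrocyte-like nuclei. The groups were apart (60.9%, log2 difference -0.70 ± 0.12, adjusted p = 0.354 by limma) and Egfr overlapped at 97.2%. The unequal filling of astrocyte-like clusters by the libraries applies here too. Bcas1os2, at chr2:170356361-170380435 on the plus strand, had 1.64, 2.12 and 1.77 against 1.14, 1.11 and 1.24 in oligodendrocyte-like nuclei, 63.1% of wild type, where Bcas1 stood at 98.3%. In committed precursor-like nuclei Bcas1os2 had 16.8, 14.2 and 13.7 against 11.4, 12.3 and 9.53, and Bcas1 101.6%. Over all nuclei Bcas1os2 stood at 51.4%, with heterozygous values of 0.199, 0.276 and 0.353, and Bcas1 at 77.8%; the libraries also differed in their numbers of oligodendrocyte-lineage nuclei, from 31 to 107 committed precursor-like nuclei, a part that was not tested. Adap2os had 2.25, 2.63 and 2.31 against 1.77, 1.93 and 1.98 in microglia-like nuclei, and Adap2 overlapped. Of these 3 transcripts none was called with adjustment.

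Other transcripts with small p in all nuclei were Rsf1os2 at 74.2% of wild type, Dnm3os at 67.8%, Ccdc34os at 71.1%, Rsf1os1 at 78.1%, Nr6a1os at 78.3% and Bcas3os1 at 74.0%, each with non-overlapping groups and an adjusted p of 0.436 or 0.455 by limma. Rsf1os1 and Rsf1os2 share the partner Rsf1, a chromatin remodelling gene at 104.7%, and are not independent of each other. Dnm3os, a precursor of microRNAs, faces the dynamin gene Dnm3, at 97.5%. Several transcripts marked for a class overlapped between genotypes: Dlx6os1 in neuroblast-like nuclei (8.13 ± 0.900 and 10.0 ± 2.22), Emx2os in astrocyte-like nuclei (0.476 ± 0.0883 and 0.482 ± 0.120), Grip1os3 in GABAergic interneuron-like nuclei (0.323 ± 0.0330 and 0.329 ± 0.0730) and Tbx3os1 in mural-like nuclei (2.08 ± 0.328 and 2.45 ± 0.343), each as wild-type and heterozygous mean ± SD over 3 libraries. Galnt6os, wholly inside Galnt6, also overlapped in oligodendrocyte-like nuclei, with a log2 difference of 0.69 ± 0.70, and Has2os had differences of -0.11 and 0.21 in the 2 classes where it was tested. Cdr1os and Oip5os1 in all nuclei overlapped too, at 106.9% and 112.3%. Otx2os1 in all nuclei ranged from 0.00710 to 0.372 per library, along with 0 to 129 choroid plexus-like nuclei.

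The group wholly inside was split off after the values were seen. All classes below come from the same libraries, so they are not independent repeats. The sum over all 113 transcripts wholly inside their partners gives 1 value per library, in which the most abundant transcripts weigh most. In D1 MSN-like nuclei it was 20.6, 17.5 and 17.5 per nucleus in wild-type and 14.6, 13.7 and 13.3 in heterozygous libraries, 74.9% of the wild-type mean. In the same nuclei the summed value of their partners was 93.9, 93.7 and 92.5 against 93.7, 97.6 and 94.8. The heterozygous libraries thus lay wholly below for the transcripts and overlapped for the partners. In astrocyte-like nuclei the transcripts' sum was 6.31 ± 0.267 against 4.65 ± 0.377 (SD over 3 libraries), and in oligodendrocyte-like nuclei 6.26, 6.76 and 6.40 against 4.97, 4.58 and 4.62. Over the 14 classes tested the heterozygous sum averaged between 71.5% and 89.8% of the wild-type one, with the heterozygous libraries wholly below in 13. The partners' sum was between 97.9% and 104.8%, wholly below in 0. The exception was the OPC-like class, where heterozygous library 1, with 28 nuclei, had 11.5, above the wild-type libraries at 8.94 to 10.6, and the other heterozygous libraries had 7.41 and 6.99. The other places were not free of such classes. For the 99 transcripts partly inside, the heterozygous sum was wholly below in 6 of 14 classes and above in 0, at 84.9% to 112.9% of wild type. For the 38 without overlap it was wholly below in 4 and above in 0, at 78.6% to 99.3%, and in D1 MSN-like nuclei it overlapped at 91.1%.

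**Figure D5:**
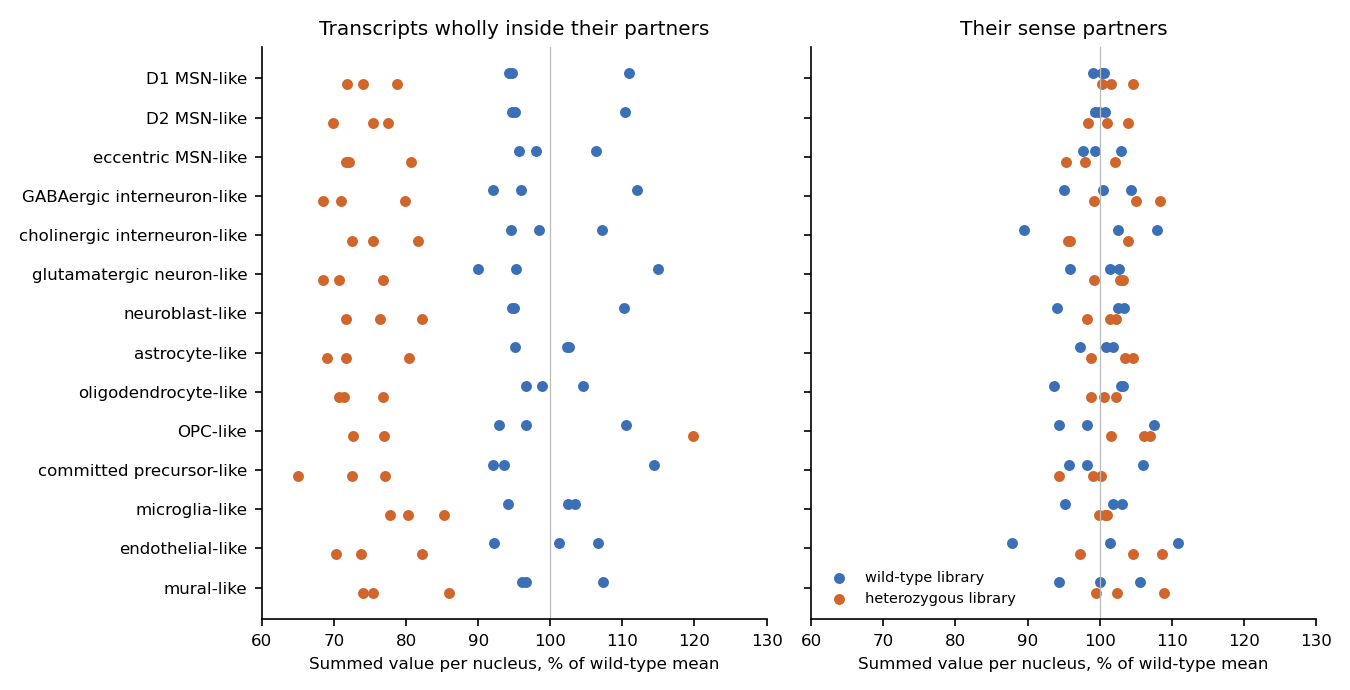
Summed value per nucleus of the 113 transcripts wholly inside their partners (left) and of those partners (right) in 14 classes, 1 point per library, as a percentage of the wild-type mean of that class. On the left the heterozygous points lie below all wild-type points in 13 of 14 classes; on the right they overlap.

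Other rows were counted beside the members. Antisense genes of the annotation that are not members were lower at an unadjusted p under 0.05 in 253 of 786 tested in D1 MSN-like nuclei (32.2%, median -0.22) and in 257 of 806 in all nuclei (31.9%), beside 35.8% and 32.5% of the members. In D2 MSN-like nuclei it was 33.4% of these genes beside 31.9% of the members, in astrocyte-like nuclei 34.9% beside 33.3% and in oligodendrocyte-like nuclei 34.3% beside 27.3%. The rows ending in os without a partner row were taken by symbol alone. They also hold genes that are not opposite-strand transcripts, such as the interneuron marker Nos1. Of these rows, 0 of 11 were lower and 3 higher in D1 MSN-like nuclei (median 0.12). In D2 0 of 8 were lower and 1 higher (median -0.02), and in all nuclei 0 of 12 were lower or higher (median 0.14). In microglia-like nuclei 2 of 7 were lower and 1 higher. Predicted genes with Gm symbols were lower in 22.8% of 1244 and those with Rik symbols in 11.7% of 660 in D1 MSN-like nuclei. Protein-coding genes were lower in 1.64% and intergenic RNAs in 9.90%. Of 26 tested rows ending in ot 0 were lower, and of 12 long nuclear RNAs such as Meg3 and Malat1 likewise 0. The rows ending in ot were taken by symbol alone and were not checked to be overlapping transcripts. The 57 tested transcripts of bidirectional promoters gave 0 lower and 1 higher. The depth of the groups overlapped in this class: the median number of genes detected was 3319.5 to 3399 in wild-type and 3275.5 to 3499 in heterozygous D1 MSN-like nuclei. With nuclei matched on genes detected, 24 of 38 transcripts wholly inside were lower there. The labels name no preparation batch, so a difference in how the libraries of a group were made and the genotype cannot be told apart.

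A few members went the other way. Myadml2os was the 1 higher transcript of D1 MSN-like nuclei, with 0.0714, 0.0620 and 0.0605 in wild-type and 0.0803, 0.0891 and 0.0915 in heterozygous libraries, all above (log2 difference 0.38 ± 0.13, adjusted p = 0.407 by limma); it was named after its value was seen. Its partner Myadml2 was too low to test. Of the 51 tested transcripts wholly inside their partners 5 had a positive difference, the largest 0.21 ± 0.22 for Nckap5los (named after its value was seen), none at an unadjusted p under 0.05.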

How the data were processed

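The authors deposited 1 table of 24841 genes by 48834 nuclei. Per the submitters' processing notes Cell Ranger and Seurat 4.1 were used with builds mm10 and GRCm38. Whether strand was used in counting is not given in the sources used here. The deposited values are whole numbers whose sums per nucleus span only 4523 to 10638, so they were read as depth-corrected and treated as a score rather than as raw counts, and no count model was run.

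Nuclei were clustered with scanpy 1.11.5 and leidenalg 0.10.2 (2000 variable genes, members and partners left out, 30 components, 15 neighbours, resolution 1.0). Clusters were named from marker genes, with naming thresholds set after the clusters were seen; 777 nuclei (1.59%) were left out as likely doublets: those with a doublet score over 0.25, and all 532 nuclei of 6 clusters in which over 40% of nuclei exceeded it. Mean values per nucleus and library were tested with limma 3.58.1 (trended empirical Bayes) on log2(mean + 0.01), for genes with a mean of at least 0.02 and a summed value averaging at least 30 per library, with Benjamini-Hochberg adjustment over all genes tested in a class. The script was tested on simulated data. P-values measure the spread between 3 libraries a group. A class with under 20 nuclei in any library was not tested.

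The members and lists were chosen with earlier results of these data known, and the split by place of the exons after the values were seen. Named were the 12 transcripts of highest level, those of smallest p in all, D1 and D2 MSN-like nuclei (10 each), the most marked transcript of each class, the 6 highest ratios to the partner and the 6 extreme pairs of co-detection, each with its partner.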

Additional observations from a re-analysis of the deposited data

How the results depend on the processing

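At adjusted p under 0.05 by limma, where 0 opposite-strand transcripts were called, matching nuclei on genes detected gave 5 in all nuclei and 1 in D1 MSN-like nuclei, size-factor scaling gave 1 in D1 and 1 in D2, and library weights gave 16 in D1 and 14 in D2. Leaving out 1 library gave 0 to 7 in D1 and 0 to 7 in D2, the 7 being without wild-type library 1. The number at an unadjusted p under 0.05 was 39 in all nuclei and 25 to 42 with 1 library left out, 39 in D1 and 24 to 33, and 31 in D2 and 26 to 31. The median difference of the log2 ratio of transcript to partner, with a pseudocount of 0.1, was -0.15 in all nuclei, -0.17 in D1 and -0.16 in D2, and with 1 library left out -0.33 to -0.21, -0.35 to -0.24 and -0.32 to -0.25. The log2 difference of Ino80dos in all nuclei, -0.02, changed sign with library weights (0.0011) and ran from -0.075 to 0.031 with 1 library left out; that of Nrg3os changed sign without wild-type library 1 (0.013). The cause was not tested.

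The replicate numbers gave no clear pairing of the libraries, which 3 numbers cannot settle. Correlations of same-numbered deviations ran from -0.08 to 0.14 in all nuclei, 0.02 to 0.27 in D1 and 0.04 to 0.26 in D2. In these, 1, 2 and 2 of 3 numbers correlated best with themselves. With the replicate block, 39, 37 and 32 transcripts had an unadjusted p under 0.05, and 1 was called with adjustment in D2.

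With 3 libraries a group and most members under 0.02 per nucleus, 118 of 256 could not be tested in any class.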
